A study of Mus musculus with 2 samples.

Results

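The genes described here are *Gp2*, *Reg3g*, *Clca3a2*, *Wfdc3*, *Wfdc18*, *Gpx2* and *Clu*, 7 of the 32589 genes counted, named together as secretory genes of the tumor epithelium. They were chosen by symbol after results of these libraries were known, with their levels in tumor cells of anti–PD-1–treated and PBS-treated animals among the values that chose them, so the comparison of these levels is a description and carries no test. The transcriptomes of single cells from mouse livers with cholangiocarcinoma (CCA) were sequenced in 2 libraries, 1 library per group. Tumors had been started by HDTVI (hydrodynamic tail vein injection) of Sleeping Beauty plasmids for NICD, the active part of the Notch receptor, and myr-AKT, a membrane-bound active AKT kinase. Animals of both groups were shYT animals, which carry doxycycline-inducible shRNAs that target *Yap1* and *Wwtr1*, which encode YAP and TAZ, beside a green reporter, and an rtTA3 transactivator driven by the CAG promoter, the ubiquitous design of the study. Doxycycline was given from day 25 and livers were taken on day 33. The anti–PD-1 group received the antibody RMP1-14 on days 26, 29 and 32, and the other group received PBS. Both groups carry the shRNAs, so depletion of YAP/TAZ was not compared. The shRNAs act in all cells that use the transactivator and not in the tumor cells alone. Neither the sex and number of the animals nor the shRNA line used is in the labels.

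The proteins of these genes belong to the products with which epithelia of the gut, pancreas and bile ducts meet microbes and injury. GP2 is a glycoprotein of pancreatic zymogen granules and of the apical surface of intestinal M cells, where it binds bacteria that carry type I pili. REG3G is a secreted lectin that kills Gram-positive bacteria and is induced through IL-22 and STAT3, WFDC3 and WFDC18 hold the whey acidic protein (WAP) domain of a family of secreted protease inhibitors and antimicrobial proteins, and CLCA3A2 belongs to the CLCA family of epithelial proteins. Clusterin, the product of *Clu*, is a secreted chaperone that marks regenerating epithelium. GPX2 is a glutathione peroxidase of epithelial cells that acts inside the cell, so not all 7 proteins are secreted.

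The genes lie on 7 different chromosomes and are annotated as protein coding (GRCm38, the assembly also named mm10, GENCODE vM21). *Gp2* (ENSMUSG00000030954) lies on chromosome 7 at 119442537 to 119459285 on the reverse strand. *Reg3g* (ENSMUSG00000030017) lies on chromosome 6 at 78466269 to 78468872 on the reverse strand, 37.6 kb from *Reg1* and 92.8 kb from *Reg3b*. *Clca3a2* (ENSMUSG00000028262) lies on chromosome 3 at 144796559 to 144819494 on the reverse strand, 3.13 kb from *Clca3b* and 35.6 kb from *Clca3a1*. *Reg3g* and *Clca3a2* thus sit in clusters of their own families, and reads shared by related genes could have been split between them. *Wfdc3* (ENSMUSG00000076434) lies on chromosome 2 at 164731180 to 164745931 on the reverse strand. *Wfdc18* (ENSMUSG00000000983) lies on chromosome 11 at 83709015 to 83711348 on the forward strand, 2.75 kb from its family member *Wfdc17*. *Gpx2* (ENSMUSG00000042808) lies on chromosome 12 at 76792333 to 76795554 on the reverse strand, and *Clu* (ENSMUSG00000022037) on chromosome 14 at 65968483 to 65981547 on the forward strand. *Gpx2* overlaps *Fntb* and *Clca3a2* overlaps the antisense gene *Gm43240*, both on the opposite strand. How counting treated strand is not stated, so UMIs of each gene and its overlapping partner may not have been told apart.

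Of the 7 genes, 6 had a promoter in the RefSeq table (GRCm38.p6), and *Clu* had no entry. The 250 bases before each RefSeq start were searched on both strands for GTGGGAA, the letters bound by RBPJ, the DNA-binding partner of NICD, and for the letters of a TATA box (TATAAA), AP-1 (TGANTCA), TEAD (GGAATG) and STAT (TTCNNNGAA). The promoters of *Gp2*, *Reg3g* and *Wfdc18* are shown because each holds TATAAA close to its start. That of *Wfdc3* is shown because it holds the RBPJ letters. The promoters are printed 5′ to 3′ along the strand of the gene, without bases that GENCODE annotates as exon, and capitals mark the matches. The RefSeq start of *Wfdc3* lies inside the longer gene that GENCODE annotates.
Gp2, chr7:119459286-119459522, reverse strand: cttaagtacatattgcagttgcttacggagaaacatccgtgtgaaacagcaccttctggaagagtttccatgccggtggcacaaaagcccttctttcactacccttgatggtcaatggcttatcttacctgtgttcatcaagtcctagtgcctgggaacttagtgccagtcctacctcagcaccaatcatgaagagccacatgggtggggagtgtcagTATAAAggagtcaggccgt
Reg3g, chr6:78468875-78469124, reverse strand: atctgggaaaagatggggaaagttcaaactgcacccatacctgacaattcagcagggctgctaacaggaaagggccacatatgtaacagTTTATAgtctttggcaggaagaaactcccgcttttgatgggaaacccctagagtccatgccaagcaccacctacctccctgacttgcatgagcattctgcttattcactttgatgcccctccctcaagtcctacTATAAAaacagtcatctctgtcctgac
Wfdc18, chr11:83708754-83709003, forward strand: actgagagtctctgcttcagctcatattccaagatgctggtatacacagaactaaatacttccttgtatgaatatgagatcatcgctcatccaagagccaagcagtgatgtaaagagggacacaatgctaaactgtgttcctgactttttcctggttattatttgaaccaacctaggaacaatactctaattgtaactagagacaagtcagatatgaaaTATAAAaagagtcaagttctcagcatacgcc
Wfdc3, chr2:164743313-164743517, reverse strand: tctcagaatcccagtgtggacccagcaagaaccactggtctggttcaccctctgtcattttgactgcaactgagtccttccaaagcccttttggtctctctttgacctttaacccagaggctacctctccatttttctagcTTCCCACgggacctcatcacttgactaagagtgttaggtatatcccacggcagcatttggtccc
TATAAA began 32 bases before the start of *Gp2*, 27 before that of *Reg3g* and 31 before that of *Wfdc18*, and 12.4% of 32851 promoters of the table hold these letters in a window of the same length. The *Reg3g* window also held them on the opposite strand, 161 bases before the start. *Wfdc3* had the RBPJ letters on the opposite strand at 109 and, in the part annotated as exon and not shown, at 9 bases before the start. These letters occur in 5.42% of the promoters. *Clca3a2* had TGATTCA, a match of the AP-1 letters, 50 bases before its start (6.75% of promoters). *Gpx2* had none of the motifs, and no gene of the 6 had the TEAD letters (12.6% of promoters) or the STAT letters (7.02%). A match says only that the letters are present.

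The library of the PBS group held 19397 barcodes and 121713441 UMIs (unique molecular identifiers, each standing for 1 captured transcript), and that of the anti–PD-1 group held 19451 barcodes and 100807037 UMIs. Cells were kept when they had 500 to 5000 detected genes and no more than 10% of UMIs from mitochondrial genes, which left 15531 and 16360 cells. Tumor cells were gated by markers of biliary and tumor epithelium, none of them among the 7 genes, and numbered 789 with PBS (5.08% of kept cells) and 487 with anti–PD-1 (2.98%). The gate does not separate tumor cells from normal bile duct cells. *Epcam*, a gate gene, was detected in 85.6% and 81.7% of the gated cells, at 602.1 and 604.3 CPM (counts of the gene scaled to the same total in every class), against 29.5 and 20.1 CPM in T cells. Gated cells had a median of 3650 UMIs with PBS and 2407 with anti–PD-1. Of their UMIs, 4941439 and 2371199 entered the sums. No barcode of a tumor-gated cell occurred in both libraries, although 145 kept barcodes did. *Yap1* had 50 and 25 UMIs in tumor-gated cells, or 10.1 CPM (7.51 to 13.3) with PBS and 10.5 CPM (6.82 to 15.6) with anti–PD-1. *Wwtr1* had 54 and 14 UMIs, or 10.9 and 5.90 CPM with overlapping intervals. Intervals here and below are at 95%, exact for levels and shares, and cover counting error only, since 1 library per group gives no measure of the spread between animals and the samples have no replicate.

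The 7 genes did not share a direction in tumor-gated cells. Their log2 ratios of anti–PD-1 over PBS ran from −0.30 to 1.25, with *Gp2* the highest and *Wfdc18* the lowest. Ratios are taken after adding 5 CPM to both levels, which shrinks those of low genes. *Gp2* was past 2-fold higher, and 1 of 7 genes stands beside 2.70% of the 10526 genes with at least 50 UMIs that were 2-fold higher (284 genes). None of the 7 was 2-fold lower, against 2.04% of all genes tested, and 4.74% passed 2-fold in either direction. Since these levels helped to choose the genes, nothing is read from that count. The median of the 7 log2 ratios was 0.40, beside −0.04 over all genes tested. A log2 ratio above 0 was found for 44.9% of all genes tested. The counting interval lay above 0 for *Gp2*, *Clca3a2*, *Gpx2* and *Reg3g*, below 0 for *Wfdc18*, and spanned 0 for *Wfdc3* and *Clu*. The share of all genes tested whose interval excludes 0 was not computed, so nothing is read from how many of the 7 did. At these UMI numbers a small difference is enough for that.

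*Gp2*, the receptor for piliated bacteria, had 21728 UMIs in PBS tumor-gated cells and 24877 in the smaller number of anti–PD-1 cells. Its level was 4397 CPM (4339 to 4456) with PBS and 10491 CPM with anti–PD-1, 2.39-fold higher (log2 ratio 1.25, interval 1.23 to 1.28). The difference between the libraries was not even across cells. In relative terms it was larger at the median cell than at the 90th percentile, and the cell with the most *Gp2* UMIs held 782 with PBS and 672 with anti–PD-1. Per 10000 UMIs of a cell, the median cell held 13.7 *Gp2* UMIs with PBS and 95.5 with anti–PD-1, and the cell at the 90th percentile held 130.8 and 225.2.

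*Clca3a2* was at 294.4 CPM with PBS and 490.9 CPM with anti–PD-1 (log2 ratio 0.73, 0.62 to 0.84). *Gpx2*, the epithelial glutathione peroxidase, was at 384.1 and 561.7 CPM (log2 ratio 0.54, 0.44 to 0.64). Both genes were thus higher with anti–PD-1 by less than 2-fold, on 1164 to 1898 UMIs per library.

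*Reg3g* was at 288.4 CPM with PBS and 382.5 CPM with anti–PD-1 (log2 ratio 0.40, 0.28 to 0.52). In the PBS library a few cells carried nearly all of it. There, 90.4% of the 1425 UMIs lay in the 5% of tumor-gated cells with the most (40 cells), and 1 cell held 242 UMIs. With anti–PD-1, 59.9% of 907 UMIs lay in the top 5% (25 cells), and no cell held more than 52. Without the 1% of cells with the most *Reg3g* UMIs in each library, the log2 ratio was 1.14, and with gated cells above 5000 genes added it was −0.24.

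The WAP genes were not higher with anti–PD-1 over all tumor-gated cells, although in Y-linked cells, described later, their log2 ratios were 0.56 and 0.40. *Wfdc3* was at 1429 CPM with PBS and 1428 CPM with anti–PD-1 (log2 ratio −0.00, −0.06 to 0.06). *Wfdc18* was at 1965 and 1594 CPM (log2 ratio −0.30, −0.36 to −0.25). Without the 1% of cells with the most *Wfdc18* UMIs in each library its log2 ratio was −0.66 (−0.73 to −0.59). In the anti–PD-1 library 1 cell held 531 of its 3779 UMIs. The distribution of *Wfdc18* also narrowed to fewer cells, with 51.0% of its UMIs in the top 5% of cells with PBS and 68.4% with anti–PD-1, where the median cell held none.

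*Clu*, the clusterin gene, was at 11116 CPM with PBS and 11132 CPM with anti–PD-1 (log2 ratio 0.00, −0.02 to 0.02). Its spread over cells was also close, with medians of 86.0 and 82.7 UMIs per 10000 and 28.7% and 31.5% of UMIs in the top 5% of cells. Nearly every tumor-gated cell held a *Clu* UMI, 782 of 789 and 483 of 487.

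**Figure D1:**
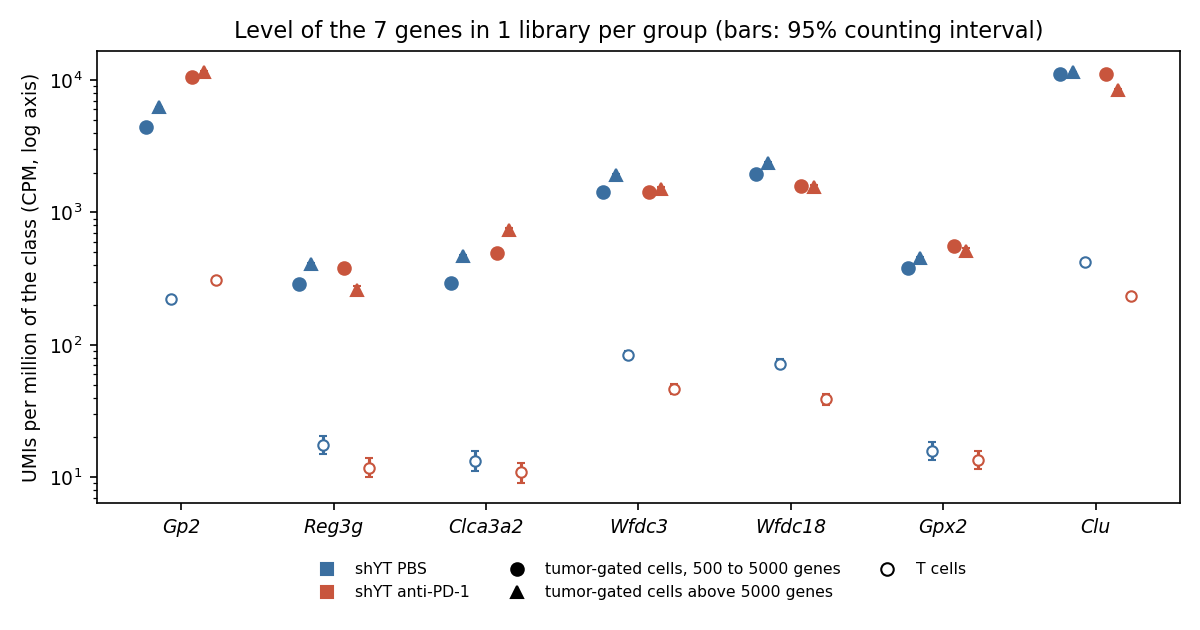
Level of the 7 genes in CPM (log axis) in tumor-gated cells (filled circles), in tumor-gated cells above 5000 detected genes (triangles) and in T cells (open circles), for the PBS (blue) and anti–PD-1 (red) libraries, with bars for the 95% counting interval. *Gp2* sits at 4397 and 10491 CPM in the filled circles while *Clu* sits at 11116 and 11132 CPM, and *Reg3g* is higher with anti–PD-1 in the circles (382.5 CPM) but lower in the triangles (261.6 CPM).

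Markers of other cells in the gated cells differed between the libraries. Hepatocyte markers (7 genes) had the largest sums, 1154 CPM with PBS (none at 0) and 1484 CPM with anti–PD-1 (2 at 0). Neutrophil markers (5 genes, none at 0) summed to 112.9 CPM in PBS tumor-gated cells and 819.8 CPM in anti–PD-1 cells, T cell markers (5 genes, none at 0) to 61.5 and 137.1 CPM, and Kupffer cell markers (4 genes, none at 0) to 70.2 and 279.2 CPM. Other sums were lower with anti–PD-1. Monocyte and macrophage markers (7 genes, none at 0) summed to 774.3 and 589.2 CPM, plasma cell markers (4 genes, 2 at 0 with PBS and 1 with anti–PD-1) to 238.2 and 91.9 CPM, and fibroblast markers (6 genes, none at 0) to 59.7 and 37.96 CPM. Markers of the acinar pancreas, where *Gp2* is a major product, summed to 42.1 CPM with PBS, with 8 of 12 genes at 0, and to 61.2 CPM with anti–PD-1, with 2 of 12 at 0. In tumor-gated cells with no UMI of any acinar marker (703 and 401 cells) the *Gp2* log2 ratio was 1.37. With at least 1 more tumor marker and no *Ptprc* UMI required (404 and 161 cells) it was 1.28. By that stricter gate *Clca3a2* was at 0.52 and *Wfdc18* at −0.49. *Wfdc3* was at −0.10 (−0.18 to −0.02) and *Clu* at 0.08 (0.05 to 0.11), so their intervals no longer spanned 0, while *Reg3g* was at 0.36 and *Gpx2* at 0.55.

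The limit of 5000 detected genes, which the study's methods set, bore on these values. Without it the gate held 279 PBS and 104 anti–PD-1 cells above that limit, with medians of 29712 and 31353 UMIs per cell. Of these, 90 and 67 held a *Ptprc* UMI. By sex-linked transcripts, described later, 204 of these PBS cells held *Xist* only, 22 Y-linked transcripts only and 40 both. Whether the 40 cells are doublets was not tested. Of the anti–PD-1 cells 0, 99 and 0 did, so sex, animal and treatment cannot be told apart here either. *Gp2* was at 6246 CPM (6197 to 6296) in these large PBS cells and at 11546 CPM (11437 to 11655) in the large anti–PD-1 cells. *Clca3a2* was at 467.4 and 734.7 CPM there and *Gpx2* at 450.1 and 514.8 CPM, so these 3 genes were again higher with anti–PD-1. The other 4 genes were lower in the large anti–PD-1 cells. *Reg3g* was at 405.7 CPM with PBS and 261.6 CPM with anti–PD-1, and *Wfdc3* at 1909 and 1515 CPM. *Wfdc18* was at 2375 and 1564 CPM, and *Clu* at 11503 and 8483 CPM. With these cells added to the gated cells (1068 and 591 in all), an alternative added after the data were seen, the *Gp2* log2 ratio was 0.98, just under 2-fold, and that of *Reg3g* was −0.24. When the gate was run again without the limit, which also changed the library shares that the gate uses and left 916 and 585 cells, the ratios were 0.94 and −0.26.

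Shares of positive cells were compared after thinning each cell to 1000 UMIs, which left out 46 PBS and 60 anti–PD-1 tumor-gated cells. *Gp2* was detected in 61.1% of 743 cells (57.5 to 64.6) of the PBS library and in 82.4% of the 427 cells of the other, 21.3 percentage points more (16.0 to 26.4). *Reg3g* was detected in 7.94% and 19.4% of cells and *Clca3a2* in 19.7% and 33.3%. *Gpx2* was detected in 26.8% and 35.1%. For these 4 genes the interval of the difference lay above 0, a count with no share over all genes computed beside it. *Wfdc18* went the other way, from 48.3% to 36.3%, a difference of −12.0 percentage points (−17.9 to −6.02). The shares of *Wfdc3* (59.8% and 63.0%) and of *Clu* (96.4% and 97.7%) differed by 3.24 (−2.71 to 9.09) and 1.29 (−0.99 to 3.31) percentage points. For *Reg3g* the share of positive cells was thus higher with anti–PD-1 by more than its summed level was. Unthinned, *Reg3g* UMIs were found in 125 of 789 PBS cells and 133 of 487 anti–PD-1 cells, and *Gp2* UMIs in 623 and 447. The *Gpx2* difference spanned 0 without thinning, at 2.68 percentage points (−3.06 to 8.38), and in Y-linked cells without *Xist*, at 10.01 (−4.82 to 22.7), and that of *Gp2* was 12.8 points without thinning. In Y-linked cells the *Wfdc3* difference was 22.4 points (6.76 to 37.0), with its interval above 0, and that of *Wfdc18* was 2.84 points (−12.5 to 16.8), with its interval spanning 0.

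T cells, which should lack these epithelial transcripts, gave the background, whose source (free RNA or doublets, which were kept) was not tested. At the same 1000 UMIs, 17.0% of PBS T cells and 20% of anti–PD-1 T cells (557 of 2785) held a *Gp2* UMI and 30.2% and 18.5% held a *Clu* UMI. Before thinning T cells had medians of 2764 and 3665.5 UMIs. The shares in T cells were 1.64% and 0.934% for *Reg3g*, 1.32% and 1.29% for *Clca3a2* and 1.46% and 1.04% for *Gpx2*. They were 7.87% and 4.31% for *Wfdc3* and 6.09% and 3.52% for *Wfdc18*. The share in tumor-gated cells was above that in T cells for each of the 7 genes in both libraries.

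**Figure D2:**
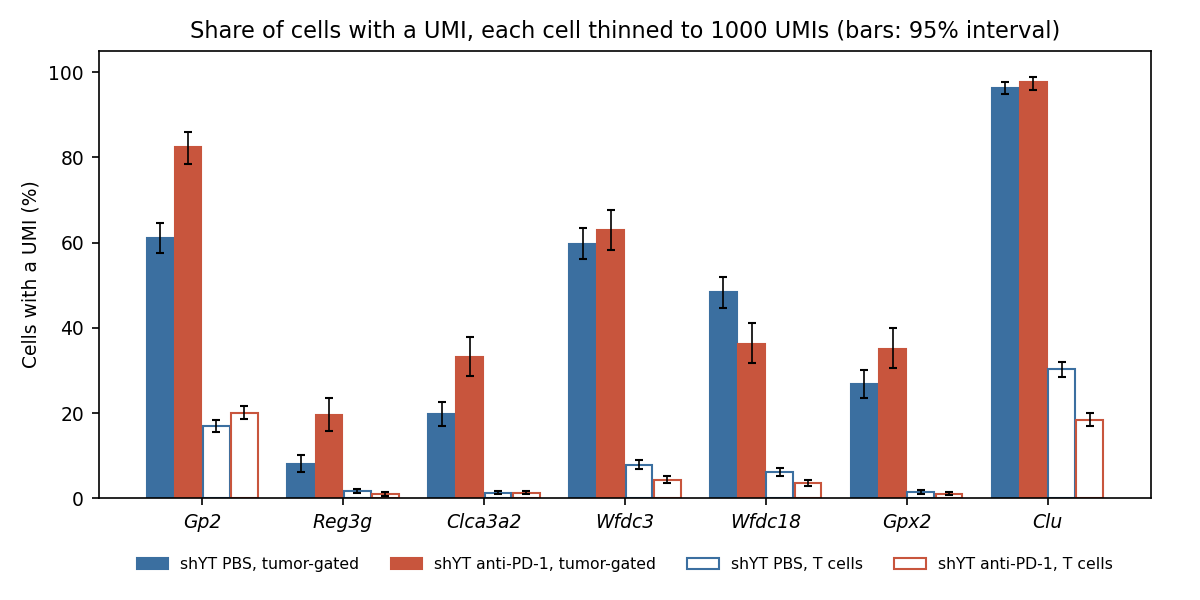
Percentage of cells with at least 1 UMI of each gene after thinning to 1000 UMIs, in tumor-gated cells (filled bars) and T cells (open bars) of the PBS (blue) and anti–PD-1 (red) libraries, with exact 95% binomial intervals. *Gp2* goes from 61.1% to 82.4% and *Wfdc18* from 48.3% to 36.3% in tumor-gated cells, while T cells show a background of 17.0% and 20% for *Gp2*.

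Across cell classes the 7 genes had their highest level in the tumor-gated class of each library. There each gene was 14.1-fold to 25.4-fold above the median of T, NK and B cells with PBS and 29.3-fold to 44.3-fold above it with anti–PD-1. Gated tumor cells held 38.0% to 53.3% of each gene's UMIs among kept PBS cells and 36.2% to 44.5% among kept anti–PD-1 cells, so a large part of the UMIs lay in cells of other classes, in cells that passed several gates or in cells that passed none. In 10 other classes with at least 50 cells in both libraries, *Gp2* was higher with anti–PD-1 in 10 of 10. *Clu*, *Wfdc3* and *Wfdc18* were lower in all 10 of these classes, *Gpx2* was higher in 1, and *Reg3g* and *Clca3a2* were higher in 2.

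The share of *Gp2* in this background moved in the same direction as in tumor-gated cells. Per 100 *Clu* UMIs, *Gp2* had 39.6 UMIs in PBS and 94.2 in anti–PD-1 tumor-gated cells. T cells went from 53.0 to 132.2 by the same measure, B cells from 42.5 to 123.5 and neutrophils from 53.5 to 122.7. The ratio was higher with anti–PD-1 in all 11 classes that had 50 cells in both libraries. Outside the tumor-gated class this count follows from *Gp2* being higher and *Clu* lower in each class, and adds nothing to those directions. In T cells *Clu* was at 421.1 CPM with PBS and 234.4 CPM with anti–PD-1, and *Gp2* at 223.1 and 309.9 CPM. Lower *Clu* thus made part of the higher ratio there, while *Clu* was level in tumor-gated cells. For *Wfdc3* it was 12.9 and 12.8 in tumor-gated cells and 20.1 and 19.7 in T cells, while it was higher with anti–PD-1 in 2 of the 11 classes and went from 12.8 to 6.17 in fibroblasts. *Reg3g* had 2.59 and 3.44 UMIs per 100 *Clu* UMIs in tumor-gated cells. Among the 11 classes it differed most in cancer-associated fibroblasts (CAFs), with 8.35 for PBS and 1.35 for anti–PD-1. These CAF values rest on 115 *Reg3g* UMIs in 439 PBS cells and only 7 in 180 anti–PD-1 cells.

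Classes that are not lymphocytes departed from this pattern for single genes. Hepatocytes of the PBS library (87 cells) held *Wfdc3* at 928.3 CPM (825.2 to 1041), on 294 UMIs, which is 41.9 UMIs per 100 *Clu* UMIs. These UMIs lay in 21 of the 87 cells, and at 1000 UMIs per cell 18.6% of 70 PBS hepatocytes (10.3 to 29.7) held one, so the level is a class sum that most of the cells did not carry. *Clu*, which liver parenchyma also makes, was at 2213 CPM in these cells. The 30 hepatocytes of the anti–PD-1 library held *Wfdc3* at 421.5 CPM, in 10 of the 30 cells, and *Gp2* at 2279 CPM, against 359.9 CPM of *Gp2* in the PBS hepatocytes. The 53 acinar cells, which were found only in the anti–PD-1 library, held *Gp2* at 923.4 CPM (796.1 to 1065) and *Clu* at 4804 CPM. *Gp2* was thus lower in acinar-gated than in tumor-gated cells of that library, at 19.2 against 94.2 UMIs per 100 *Clu* UMIs.

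**Figure D3:**
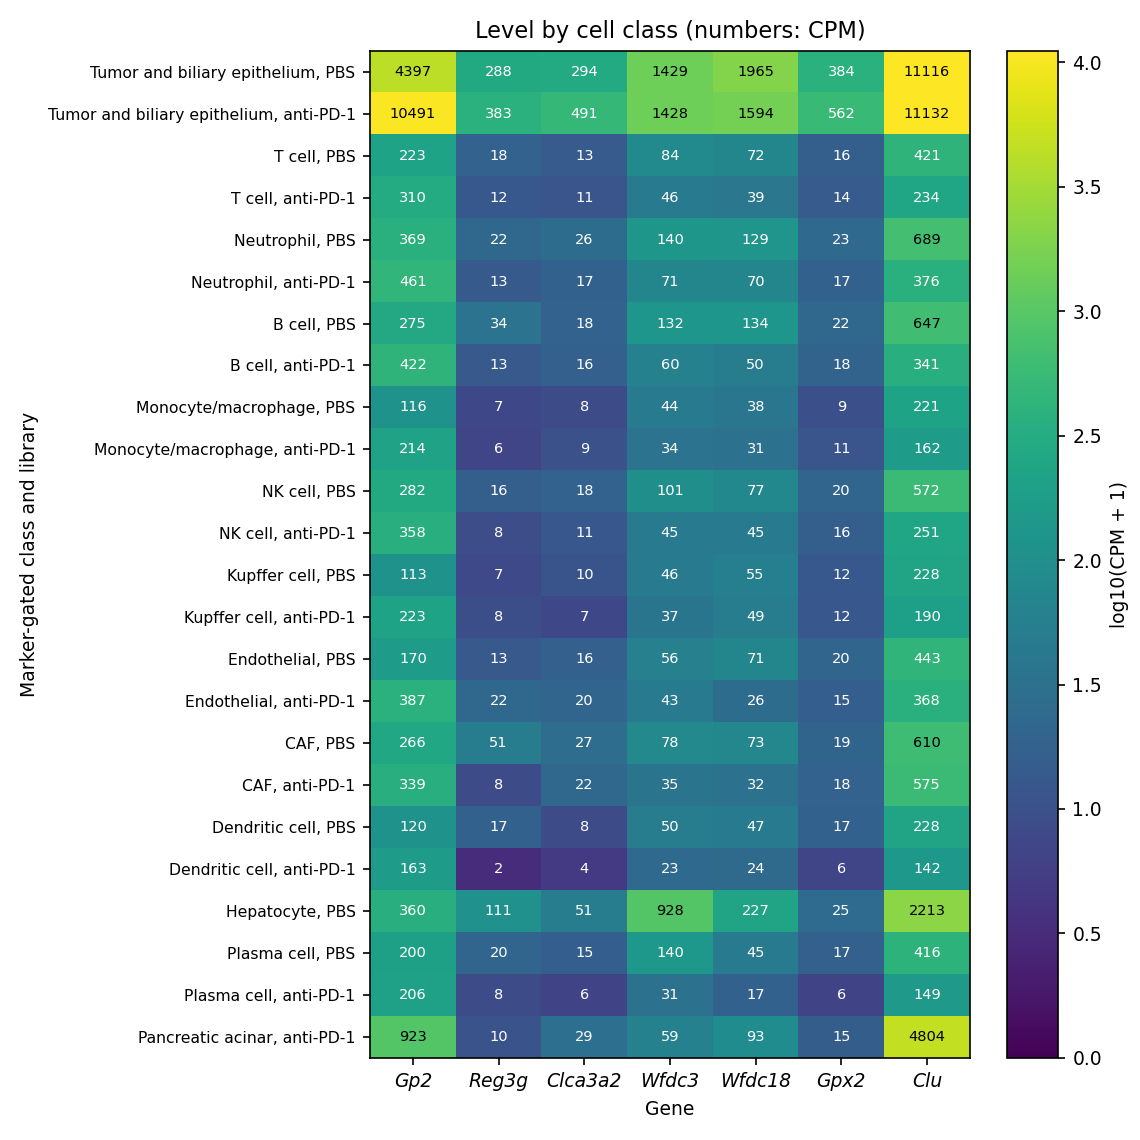
Level of the 7 genes (columns) in CPM in each marker-gated class with at least 50 cells (rows, by library), with color for log10(CPM + 1). The tumor and biliary rows are the highest for every gene, and the PBS hepatocyte row stands out for *Wfdc3* at 928 CPM, a class sum that rests on 21 of 87 cells.

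Single tumor-gated cells often held several of the genes. At 1000 UMIs per cell the median was 3 of the 7 genes with PBS and 4 with anti–PD-1, and at least 5 of them were found in 17.8% (15.1 to 20.7) of cells with PBS and 30.7% (26.3 to 35.3) with anti–PD-1. All 7 were found in 4 and 10 cells. Of the 21 pairs, 17 had odds above 1 with PBS and 21 with anti–PD-1, which means that cells positive for 1 gene of the pair were more often positive for the other than negative cells were. The pairs share cells and depth, and any free RNA in a cell enters all of them, so the odds are a description. Pairs of other genes were not counted, so whether these counts are particular to the 7 genes was not tested. Nearly every cell held *Clu*, so the odds of its pairs rest on few cells without it.

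*Gp2* and *Clca3a2* went together in both libraries. *Clca3a2* was detected in 27.3% of *Gp2*-positive and 7.61% of *Gp2*-negative PBS cells, and in 39.8% and 2.67% of anti–PD-1 cells. *Gpx2* was detected in 36.3% of *Gp2*-positive and 11.8% of *Gp2*-negative PBS cells, and in 41.8% and 4.00% of anti–PD-1 cells. *Reg3g*-positive cells were the richest in *Clca3a2*, with 55.9% against 16.5% of *Reg3g*-negative cells with PBS and 63.9% against 25.9% with anti–PD-1. The 4 pairs with odds under 1, all with PBS, held *Wfdc18* or *Clu*. With PBS *Wfdc18* was detected in 39.0% of *Reg3g*-positive and 49.1% of *Reg3g*-negative cells, and *Gpx2* was detected in 23.4% of *Wfdc18*-positive and 29.9% of *Wfdc18*-negative cells. *Clu* was detected in 94.9% of *Reg3g*-positive and 96.5% of *Reg3g*-negative cells, and in 95.5% of *Gpx2*-positive and 96.7% of *Gpx2*-negative cells. All 4 of these odds were above 1 with anti–PD-1, where *Wfdc18* was found in 43.4% and 34.6% of *Reg3g*-positive and *Reg3g*-negative cells. For *Reg3g* and *Clu* with anti–PD-1 this rests on 10 cells without *Clu*, none of them *Reg3g*-positive.

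The libraries also differed in the sex-linked transcripts of their cells. *Xist*, made from the inactive X of female cells, was detected without any of 4 Y-linked transcripts (*Ddx3y*, *Eif2s3y*, *Kdm5d*, *Uty*) in 369 PBS tumor-gated cells and 2 anti–PD-1 cells. Y-linked transcripts without *Xist* were found in 57 PBS and 194 anti–PD-1 cells, both kinds in 17 and 0 cells, and neither in 346 and 291 shallower cells. Tumor-gated cells with *Xist* were thus common with PBS and nearly absent with anti–PD-1, and sex, animal and treatment cannot be told apart in the comparison of whole libraries.

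Within the PBS library, levels in cells with Y-linked transcripts lay below those in cells with *Xist* for *Gp2*, *Reg3g*, *Clca3a2*, *Wfdc3* and *Wfdc18*, with the whole interval of the log2 ratio below 0. *Reg3g* differed most, at 379.4 CPM (358.1 to 401.7) in *Xist* cells and 47.9 CPM in Y-linked cells, the latter on 24 UMIs (log2 ratio −2.86, −3.44 to −2.33). *Gp2* was at 4712 and 3221 CPM in these cells, *Wfdc3* at 1416 and 929.5 CPM and *Wfdc18* at 1959 and 1362 CPM. The interval spanned 0 for *Gpx2* (381.0 and 329.1 CPM). *Clu* was slightly higher in the Y-linked cells, at 12229 CPM against 11630 CPM.

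Y-linked cells alone gave other ratios than whole libraries. *Gp2* was at 3221 CPM in PBS and 10270 CPM in anti–PD-1 Y-linked cells, a log2 ratio of 1.67 (1.60 to 1.75). *Reg3g* was at 47.9 and 305.9 CPM, a log2 ratio of 2.56 (2.01 to 3.14), and *Clca3a2* at 201.5 and 455.3 CPM (log2 ratio 1.16). *Gpx2* was at 329.1 and 541.4 CPM (log2 ratio 0.71). In these cells the WAP genes were higher with anti–PD-1, with log2 ratios of 0.56 for *Wfdc3* and 0.40 (0.28 to 0.52) for *Wfdc18*, so *Wfdc18* turned its direction. *Clu* had a log2 ratio of −0.19. The labels do not tie the 57 PBS cells to animals. At 1000 UMIs per cell, *Gp2* was detected in 59.7% of PBS *Xist* cells (54.4 to 64.8), 29.8% of PBS Y-linked cells (18.4 to 43.4) and 79.8% of anti–PD-1 Y-linked cells (73.3 to 85.3).

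**Figure D4:**
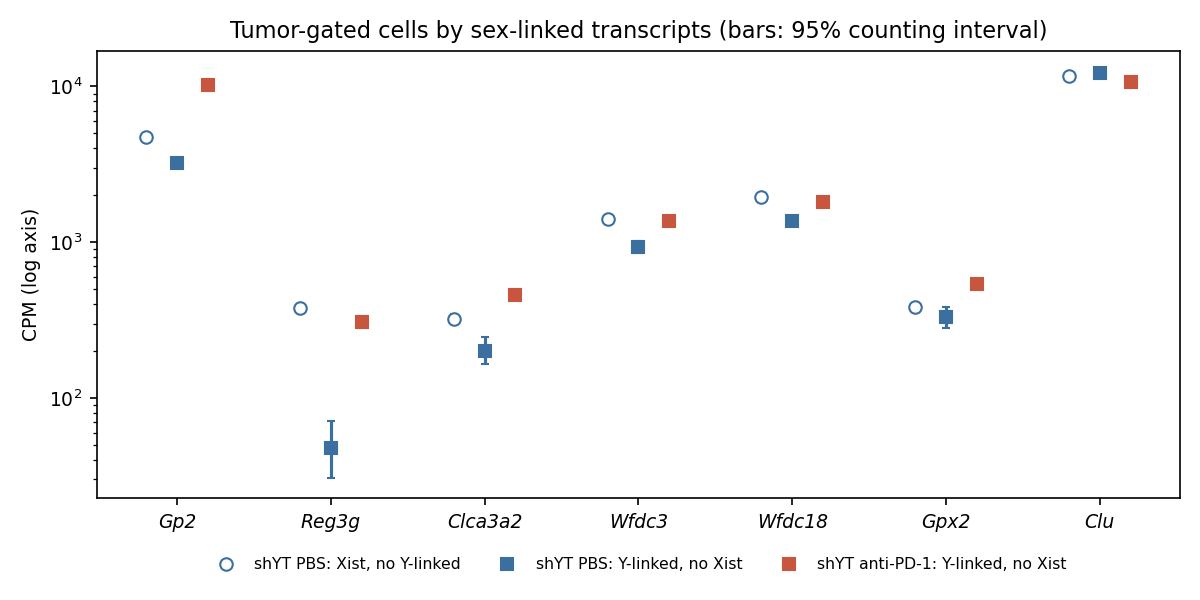
Level of the 7 genes in CPM (log axis) in tumor-gated cells split by sex-linked transcripts, with open circles for PBS cells with *Xist*, blue squares for PBS cells with Y-linked transcripts and red squares for anti–PD-1 cells with Y-linked transcripts, and bars for the 95% counting interval. *Reg3g* shows the widest gap, 379.4 against 47.9 CPM within the PBS library, and *Clu* stays between 10706 and 12229 CPM. The *Reg3g* gap is between summed levels, in a library where a few cells carried nearly all *Reg3g* UMIs. The intervals of its shares of positive cells overlapped.

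Genes related to the 7 were taken from lists chosen with earlier results known. Of 8 measured REG and epithelial antimicrobial genes, 3 were at least 2-fold higher with anti–PD-1 and 4 at least 2-fold lower (median log2 ratio −0.67). *Slpi*, a secreted protease inhibitor with WAP domains, was higher at 12.5 and 102.5 CPM (log2 ratio 2.61). The neutrophil genes *S100a8* (62.9 and 444.5 CPM) and *S100a9* (32.4 and 311.2 CPM) were higher in the same gated cells, and their part in the *Slpi* ratio was not tested. *Pigr*, which carries IgA across epithelium, was at 163.5 and 365.2 CPM (1.14). *Saa3*, an acute-phase gene, rested on 18 and 34 UMIs (1.16). *Reg1*, the neighbour of *Reg3g*, was lower at 580.4 and 46.8 CPM (log2 ratio −3.50), and *Reg3b* at 47.6 and 11.8 CPM (−1.64). The oxidase gene *Duox2* had 69 UMIs with PBS and 1 with anti–PD-1, which is 33.1-fold (5.75 to 1327) lower relative to all UMIs of the class, and its maturation factor *Duoxa2* had 91 and 4 UMIs. *Lcn2*, which binds bacterial siderophores, was at 941.8 and 1161 CPM (0.30). The measured REG genes next to *Reg3g* on chromosome 6 therefore had the opposite direction in these sums, although *Reg3g* itself turned to −0.24 when cells above 5000 genes were added.

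Of 5 measured WAP genes outside the 7, *Slpi* and *Wfdc17* were at least 2-fold higher and *Wfdc1* was 2-fold lower (median 0.20). *Wfdc17*, the neighbour of *Wfdc18*, was at 51.4 and 148.0 CPM (log2 ratio 1.44), and the part of immune RNA in it was not tested either. *Wfdc1* was at 50.4 and 18.6 CPM (−1.23). *Wfdc2* was at 364.3 and 331.9 CPM (−0.13) and *Wfdc15b* at 72.9 and 84.3 CPM (0.20). Of 6 CLCA genes in the list only *Clca3a1* had 50 UMIs, at 15.4 and 26.1 CPM (0.61), on 76 and 62 UMIs.

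Of 12 measured genes of glutathione and NRF2, none was 2-fold higher after the 5 CPM were added, and 4 had a log2 ratio above 0. *Gsta4*, at 170.8 and 343.3 CPM (0.99), fell under 2-fold only through the added 5 CPM, and *Hmox1* was at 0.86. *Gsto1* was 2-fold lower (125.7 and 40.1 CPM, log2 ratio −1.54). The median was −0.15. The peroxidases *Gpx4* (1468 and 1426 CPM) and *Gpx1* (1112 and 1113 CPM) stood at log2 ratios of −0.04 and 0.00, beside 0.54 for *Gpx2*. *Gstm1*, a glutathione transferase, was at 1673 and 1056 CPM (−0.66), and *Gsr*, glutathione reductase, at 304.8 and 261.0 CPM (−0.22).

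Of 5 measured genes of mucins and goblet cells, none was higher and 3 were at least 2-fold lower (median −2.18, the same with *Tff1* at its bound). The trefoil factor gene *Tff1* had 132 UMIs with PBS and 0 with anti–PD-1, which is at least 21.1-fold lower against a floor of 3 counts in the library. *Agr2*, a chaperone of mucin folding, had 130 and 3 UMIs, which is 20.8-fold (6.96 to 102.1) lower relative to all UMIs of the class. *Fcgbp*, a mucus protein, was at 92.3 and 16.4 CPM (log2 ratio −2.18), *Muc1* at 287.6 and 185.1 CPM (−0.62) and *Tff2* on 68 and 21 UMIs at −0.44.

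Of 7 measured genes of regenerating epithelium, to which *Clu* is related by use as a marker, *Ly6a* was 2-fold higher (130.1 and 366.9 CPM, log2 ratio 1.46) and *Ly6d* was lower (478.2 and 43.9 CPM, −3.31). *Cxadr*, a junction protein, was at −0.17, *Anxa3* at −0.27 and *Anxa1* at 0.05. Of 7 measured M cell genes, none was 2-fold higher. *Spib*, the transcription factor of M cells, was lower at 75.3 and 22.4 CPM (−1.55). *Anxa5* was at 0.02, *Marcksl1* at −0.43, *Ccl9* at 0.17 and *Tnfaip2* at −0.04.

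Of 10 measured genes of cytokine receptors and STAT3, the STAT3 feedback inhibitor *Socs3* was the only 1 past 2-fold (21.5 and 120.6 CPM, log2 ratio 2.25). The part of immune RNA in the *Socs3* ratio was not tested. *Stat3* was at 105.4 and 132.8 CPM (0.32). The receptor genes *Lifr* and *Osmr* were at −0.47 and −0.50, and *Bcl3* was at 0.56. None of 10 genes of the secretory machinery passed 2-fold, with a median of 0.11, and the chaperone *Hspa5* was at 816.4 and 1005 CPM (0.30). *Sec61b* was at −0.03, *Ssr4* at −0.18 and *Manf* at 0.05. Of 8 genes of biliary and tumor identity, keratins and gate genes among them, *Krt7* was 2-fold lower (123.9 and 56.9 CPM, −1.06) and the median was −0.34. The osteopontin gene *Spp1* was at −0.27, *Krt8* at −0.40, *Krt18* at −0.43 and *Krt19* at −0.48. Of 7 genes whose RNA could come from immune cells, 4 were at least 2-fold higher in the tumor-gated class. These were *S100a9* (32.4 and 311.2 CPM), *S100a8* (62.9 and 444.5 CPM), *Cd74* (1645 and 4492 CPM) and *Cd79a*. Whether the tumor-gated cells themselves made this RNA, that of *Cd74* included, was not tested. *Lyz2* was at 812.7 and 469.0 CPM (−0.79), and *Ptprc* at 72.0 and 148.9 CPM (1.00, just under 2-fold only through the added 5 CPM).

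**Figure D5:**
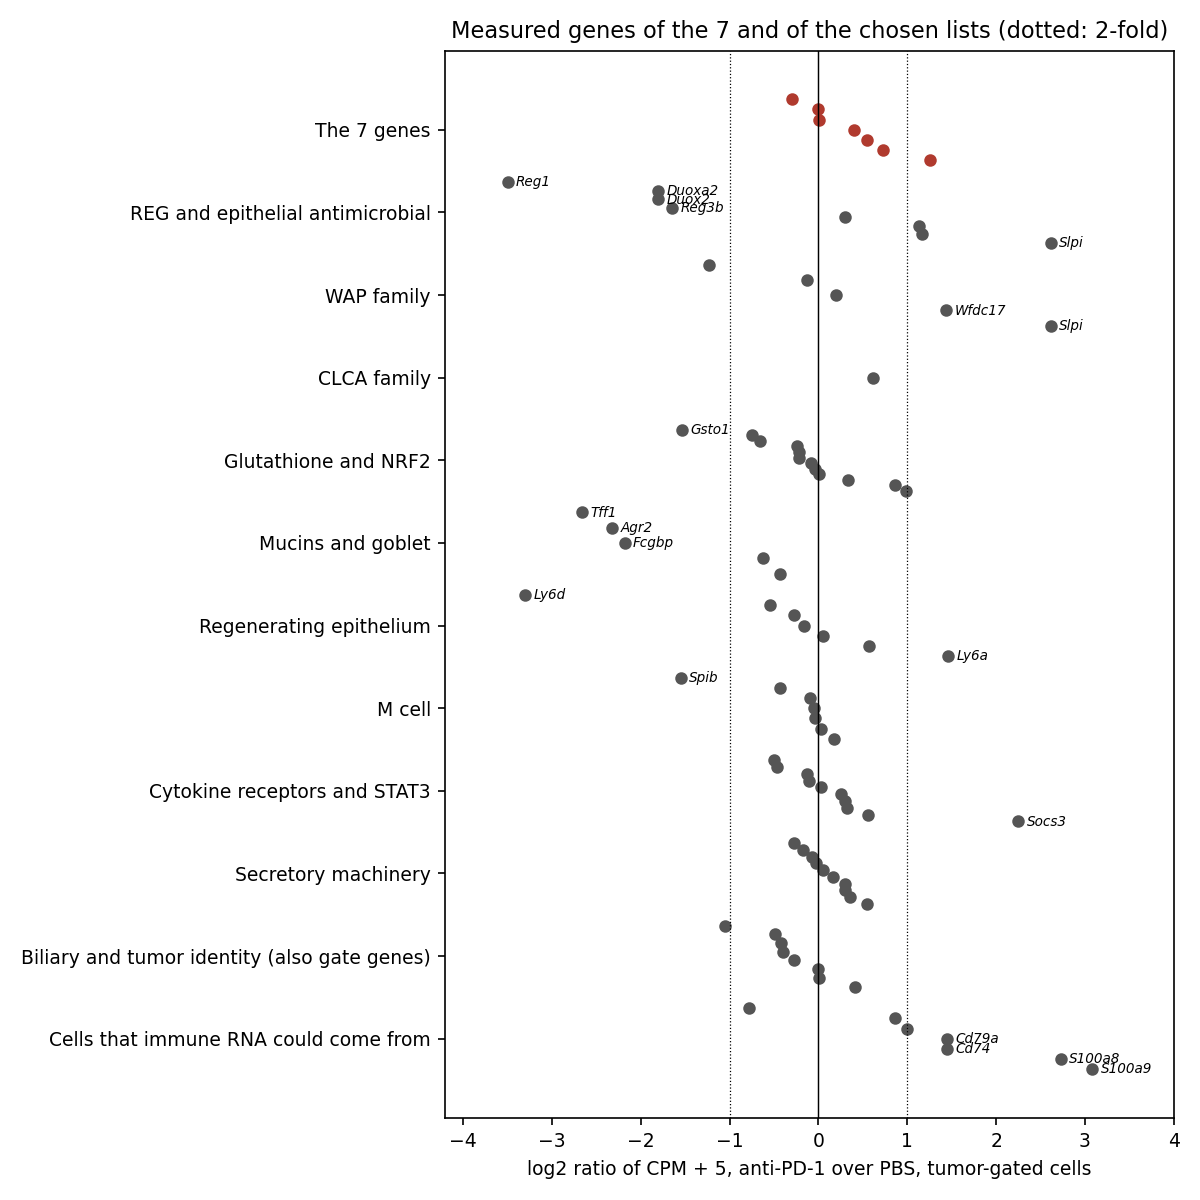
Log2 ratio of CPM + 5, anti–PD-1 over PBS in tumor-gated cells (x axis), for the 7 genes (red) and the measured genes of each list (grey, rows), with dotted lines at 2-fold. The 7 genes lie between −0.30 and 1.25, while *Reg1* (−3.50), *Ly6d* (−3.31) and *Tff1*, *Agr2* and *Fcgbp* lie far to the left and *Slpi* (2.61) to the right.

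*Reg3g* was also looked at beside genes that were lower with anti–PD-1 and other mucin and trefoil genes. A set of 11 genes (*Tff1*, *Tff2*, *Tff3*, *Agr2*, *Fcgbp*, *Ly6d*, *Reg1*, *Duox2*, *Duoxa2*, *Muc4*, *Muc13*) was chosen after these values were seen, and the split by it is a description. It names no cell type, since the goblet cell genes *Spdef* and *Muc5ac* had 4 UMIs and 1 UMI in PBS tumor-gated cells and *Muc5b* had none. In the PBS library 85.0% of the UMIs of the set lay in 5% of the tumor-gated cells. UMIs of at least 3 genes of the set were found in 46 PBS cells and 2 anti–PD-1 cells. These 46 cells held 538 of the 1425 *Reg3g* UMIs, at 1406 CPM (1289 to 1530), against 115.8 CPM in the 487 PBS cells with no UMI of the set. *Reg1* is in the set, and reads shared by it and *Reg3g* could have been split between them. A single PBS tumor-gated cell held 242 *Reg3g* UMIs, and how the 538 spread over the 46 cells is not given. The other genes went either way there. *Gp2* was at 1544 CPM in the 46 cells and 4134 CPM in PBS cells without the set, *Wfdc3* at 389.3 and 1518 CPM and *Wfdc18* at 637.5 and 1959 CPM. *Gpx2* was at 457.2 and 347.9 CPM and *Clu* at 13911 and 10859 CPM, higher in the 46 cells. For *Clca3a2* the levels of 324.0 (269.5 to 386.3) and 253.8 CPM (235.0 to 273.7) had overlapping counting intervals. An interval of their ratio was not computed, so the overlap does not settle whether they differ. In the 256 PBS cells with 1 or 2 genes of the set *Reg3g* was at 305.6 CPM, between the other groups, while *Gp2* (5346 CPM) and *Wfdc18* (2241 CPM) were above the cells without the set, and *Clca3a2* (345.8 CPM) was close to its level in the 46 cells. The split also sorted PBS cells by depth, with medians of 2982, 4878 and 8245.5 UMIs per cell for none, 1 or 2, and at least 3 genes, and the part of depth in these levels was not tested. In anti–PD-1 cells without a UMI of the set (361 cells) *Reg3g* was at 345.6 CPM and *Gp2* at 8729 CPM. Without the cells that held 3 genes of the set, the log2 ratio of *Reg3g* was 0.97 and that of *Gp2* was 1.20.

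The genes most like each of the 7 were taken by Pearson's r of log levels over 24 sums of 13 classes and 2 libraries, which share the libraries and any free RNA in them. *Gp2* was closest to *Gm37350* (r = 0.961), *Gabrp* and *Spink4*, and *Clca3a2* to *Tstd1* (0.972), *Gm37350* and *Myo5b*. *Gpx2* was closest to *Sftpd* (0.966), *Cyp4f14* and *Gabrp*. *Reg3g* was closest to *Mme* (0.953), *Wfdc3* and *Tafa5*, and *Wfdc3* to *Crhbp* (0.982), *Mme* and *Onecut2*. *Wfdc18* was closest to *Cldn6* (0.974), *Krt8* and *Gm609*, and *Clu* to the junction genes *Cxadr* (0.978) and *Dsg2* and to *Krt18*. By this measure *Gp2* shared *Gm37350* with *Clca3a2* and *Gabrp* with *Gpx2*, and *Reg3g* shared *Mme* with *Wfdc3*, while *Wfdc18* and *Clu* each had a keratin among their nearest genes.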

How the data were processed

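Tumor-bearing mouse livers were dissociated and prepared with the Singleron GEXSCOPE kit in 2 libraries, grouped by the treatment label. As deposited, the matrices hold unnormalized UMI counts of each gene in each barcode, which the authors made with the Singleron software on mm10. The annotation and the handling of strand are not given in the sources used here, and the submitters' processing notes name Seurat 4.3. The 7 genes and the lists were chosen with earlier results of these data known.

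Cells with 500 to 5000 genes and at most 10% mitochondrial UMIs were kept. A cell passed a class with UMIs of at least 3 of its markers (2 for lists under 5 genes) and a mean ratio of marker share to library share, capped at 20, of at least 2. Cells that passed several classes (1193 and 1654) or none (5061 and 3886) were left out of the classes. This scoring rule was set after the data were seen. Class names mean that cells passed these markers.

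UMIs were summed per class and scaled to CPM, with exact Poisson intervals, and shares carry Clopper-Pearson intervals (numpy 2.4.6, scipy 1.17.1, pandas 2.3.3, Python 3.11.15). Intervals of log2 ratios combine both counts, and those of share differences combine both shares. Thinning drew 1000 UMIs per cell (seed 7). With 1 library per group no test was made and no p-value is given. Within the lists, the text names genes by their UMI number (up to 4) and those past 4-fold, among genes with at least 50 UMIs. Others named to complete a count were chosen after their values were seen. The automatic doublet threshold (scanpy 1.11.5) marked 0 cells and had not worked. The 8% of cells with the highest doublet scores were instead left out in an alternative, which removed 22 and 7 tumor-gated cells, and doublets were kept in the values reported. Of the gene identifiers, 32445 of 32589 (99.56%) matched GENCODE vM21. The ratios and their intervals were tested on counts simulated for class totals, with counting error only. Gating, summing over cells and any spread between cells or animals were not part of that test.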

Additional observations from a re-analysis of the deposited data

How the results depend on the processing

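The 7 genes' median log2 ratio of 0.40 in tumor-gated cells was 0.56 as a mean over cells, 0.24 with cells of several classes kept, 0.53 without acinar UMIs, 0.71 in Y-linked cells, 0.54 without the top 1% of cells and, chosen after seeing the data, 0.58 without cells of the 11-gene set. It turned to −0.24 with no upper limit on genes, where *Reg3g* turned to −0.26, and also to −0.24 with cells above 5000 genes added to the gated cells, where *Reg3g* turned to −0.24, the latter alternative added after seeing the data. In Y-linked cells *Wfdc18* turned to 0.40 and its share difference to 2.84 percentage points. *Gp2* stayed above 2-fold in 12 of 14 alternatives and above 0 in all 14, as did *Clca3a2* and *Gpx2* above 0, while *Reg3g* ran from −0.26 to 2.56. Sizes moved more than directions. Of 98 alternative log2 ratios of the 7 genes, 43 lay inside the main counting interval, 52 moved outside it and 3 turned direction. For *Gp2* 3 of the 14 lay inside it. The alternatives share cells and are not independent. With at least 200 UMIs required, 153 genes were 2-fold higher and 99 lower, against 284 and 215. With a pseudocount of 1 CPM 341 were lower. The median of the fold over lymphocytes with anti–PD-1 was 35.2, and 31.5 with cells of several classes given to the higher score. Pairs of genes together in both libraries numbered 17, and 19 with 2000 UMIs or no thinning, alternatives also added after the data were seen. The causes were not tested. No paired analysis was possible because each group holds 1 library. Any free RNA was not subtracted, and the few UMIs of *Reg3g* and of *Clca3a2* limit their shares in single cells.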
